A study of Mus musculus with 4 samples.

Results

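Of the 22180 mouse genes with a usable row on the arrays, 9 genes of the tricarboxylic acid cycle are described here: Cs, Idh3a, Idh3b, Idh3g, Ogdh, Sucla2, Suclg1, Fh1 and Mdh2. Each encodes an enzyme or enzyme subunit of the cycle. The 9 are not the whole cycle, and its other subunits are read from a separate list below. The 9 were chosen by symbol, and each had exactly 1 row on the array, named through the platform annotation. The signal came from Thy1+ LSK cells sorted from bone marrow, a lineage-negative fraction that carries Sca-1 and Kit and is rich in haematopoietic stem cells. The arrays fell into 2 Nol3-/- MPN and 2 Nol3+/+ arrays, all from uncultured, untreated cells of C57BL/6 mice aged 11 to 18 months. MPN is read here as myeloproliferative neoplasm, and the sample labels attach it to Nol3-/- alone, so genotype and disease label divide the arrays in the same way. Nol3 encodes an inhibitor of apoptosis also called ARC. The labels give neither the sex of the animals nor how many animals went into an array, and they do not describe how Nol3 was deleted. The p-values therefore measure the spread between these arrays, which may be technical.

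The tricarboxylic acid cycle runs in the mitochondrial matrix, where it oxidises acetyl-CoA to carbon dioxide and passes the electrons to the respiratory chain as NADH and FADH2. Its intermediates also leave the matrix as precursors of fatty acids, amino acids and haem, and fumarate, succinate and 2-oxoglutarate act as inhibitors or cosubstrates of dioxygenases that demethylate DNA and histones. Haematopoietic stem cells at rest are known for a low reliance on mitochondrial respiration, which increases as they leave quiescence.

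No member passed the test. Limma, with Benjamini-Hochberg adjustment over all 16635 genes tested, called 0 of the 9 members, and their adjusted p-values lay between 0.841 (Idh3g and Fh1) and 0.997 (Ogdh). Over the whole table it called 0.024% of genes. At an unadjusted p under 0.05 the count was 1 of 9 higher in Nol3-/- MPN (Fh1) and 0 lower, against 3.73% of all genes higher and 2.07% lower. All 9 members passed the filter on dim genes, which left out those with a mean log2 signal under 4.835. In a design of 2 arrays against 2, the smallest two-sided p of an exact permutation test for 1 gene is 0.333, so no such test of a single member could have passed.

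Some facts of the arrays bear on every value. Nol3+/+ replicate 1 stood apart. It correlated with Nol3+/+ replicate 2 at r = 0.911 across the tested genes, which are not independent replicates, while the correlations between Nol3+/+ replicate 2 and the Nol3-/- MPN arrays were 0.929 and 0.945. Nol3 itself read 5.38 and 5.50 in the Nol3-/- MPN arrays and 5.31 and 5.52 in the Nol3+/+ arrays, so its row does not separate the genotypes, and where its probes lie relative to the deletion is not given in the sources used here. Xist, the RNA by which female cells silence 1 X chromosome, read 10.9 and 10.7 in the Nol3-/- MPN arrays and 5.43 and 5.28 in the Nol3+/+ arrays. For 11 of 13 tested Y-linked genes, each Nol3-/- MPN value was below each Nol3+/+ value. Genotype, disease label and sex-linked signal therefore cannot be told apart in these arrays. Of the sort markers, Kit read 8.38 and 7.39 in the Nol3-/- MPN arrays and 8.07 and 8.10 in the Nol3+/+ arrays. Thy1 read 4.64 and 5.24 in the Nol3-/- MPN arrays and 4.74 and 5.02 in the Nol3+/+ arrays, values around the limit for dim genes, and Sca-1 (Ly6a) has no row with a single symbol.

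**Figure D1:**
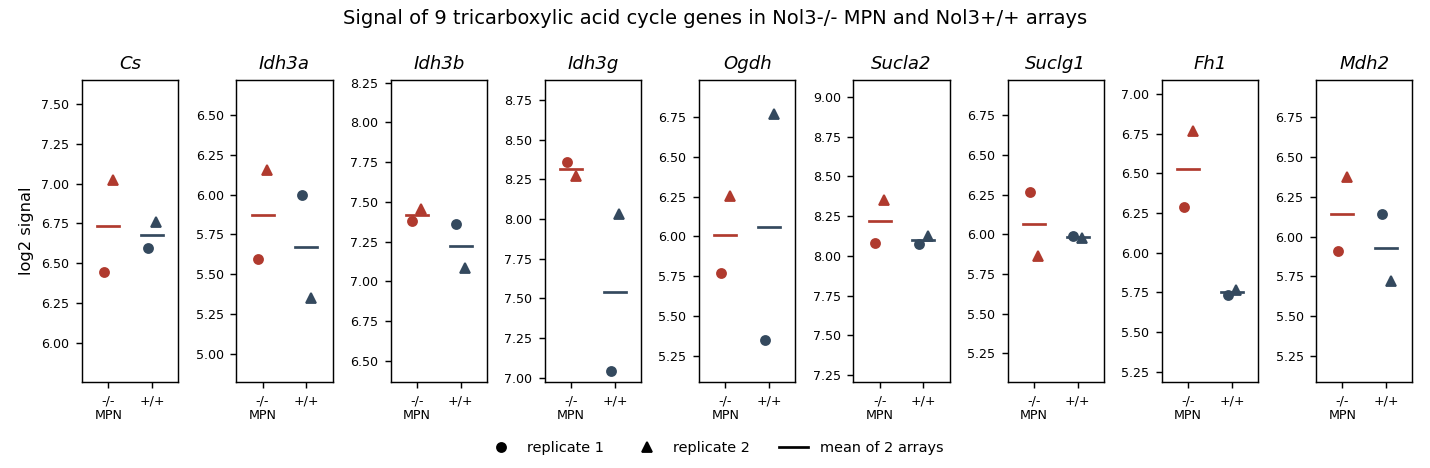
Log2 signal of each cycle gene in the 2 Nol3-/- MPN arrays (left in each panel) and the 2 Nol3+/+ arrays (right), with a bar at the mean of the 2. All panels span the same number of log2 units around the gene's own mean. Fh1, Idh3g and Idh3b are the members whose groups do not overlap.

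Fh1 encodes fumarase, which hydrates fumarate to malate, and it was the member with the smallest p. Its log2 signal was 6.29 and 6.76 in the Nol3-/- MPN arrays, against 5.73 and 5.77 in the Nol3+/+ arrays. Both Nol3-/- MPN arrays lay above both Nol3+/+ arrays, and the Nol3+/+ arrays were 0.03 apart. The log2 difference was 0.78 with a standard error of 0.21 and a 95% interval from 0.23 to 1.32 (limma unadjusted p = 0.0141, adjusted p = 0.841). By unadjusted p, Fh1 ranked 258 of the 16635 genes. Its difference was the only one among the members to exceed the gap between replicates in both groups, which 23.0% of all tested genes also did. It stayed higher in Nol3-/- MPN whichever array was left out, at 0.76 without Nol3+/+ replicate 1, 0.79 without Nol3+/+ replicate 2, 1.01 without Nol3-/- MPN replicate 1 and 0.54 without Nol3-/- MPN replicate 2. The array measures a sorted population, in which more cells of a type and more RNA per cell cannot be told apart.

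Idh3g encodes a regulatory subunit of the NAD-dependent isocitrate dehydrogenase, which converts isocitrate to 2-oxoglutarate. Its log2 signal was 8.36 and 8.27 in the Nol3-/- MPN arrays, against 7.05 and 8.03 in the Nol3+/+ arrays. The groups did not overlap, but Nol3+/+ replicate 1 lay 0.98 below Nol3+/+ replicate 2. The log2 difference was 0.78 with a standard error of 0.37 and a 95% interval from -0.17 to 1.73 (limma adjusted p = 0.841). It was 0.29 without Nol3+/+ replicate 1 and 1.27 without Nol3+/+ replicate 2. Idh3g is also the only member on the X chromosome. Of 612 X-linked genes other than Xist, 30.2% were higher in both Nol3-/- MPN arrays, against 19.7% of all genes tested, and the part of the sex-linked difference in the Idh3g signal was not tested.

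The catalytic subunit of the same enzyme, encoded by Idh3a, read 5.59 and 6.16 in the Nol3-/- MPN arrays and 6.00 and 5.35 in the Nol3+/+ arrays. These groups overlapped, with a log2 difference of 0.20 (standard error 0.30, limma adjusted p = 0.944). Idh3b, whose product pairs with the catalytic subunit in the complex, read 7.38 and 7.45 in the Nol3-/- MPN arrays and 7.36 and 7.08 in the Nol3+/+ arrays. Its groups did not overlap, but Nol3-/- MPN replicate 1 and Nol3+/+ replicate 1 were nearly level. The log2 difference of Idh3b was 0.19 (standard error 0.22, 95% interval from -0.37 to 0.76, limma adjusted p = 0.927), and it was 0.06 without Nol3+/+ replicate 2. Subunits of 1 complex thus differed in their pattern over the arrays: Nol3+/+ replicate 1 was the lowest array for Idh3g, whereas Nol3+/+ replicate 2 was the lowest for Idh3a and Idh3b.

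Cs encodes citrate synthase, which joins acetyl-CoA to oxaloacetate at the start of the cycle. It read 6.44 and 7.02 in the Nol3-/- MPN arrays and 6.60 and 6.76 in the Nol3+/+ arrays. Both Nol3+/+ values lay between the Nol3-/- MPN values, and the log2 difference was 0.05 with a 95% interval from -0.61 to 0.72 (limma adjusted p = 0.992). Ogdh encodes the first component of the 2-oxoglutarate dehydrogenase complex, which forms succinyl-CoA. It read 5.77 and 6.25 in the Nol3-/- MPN arrays and 5.35 and 6.77 in the Nol3+/+ arrays. Ogdh had the widest gap between replicates among the members, 1.42 log2 units in Nol3+/+, and the only negative difference, -0.05 with a 95% interval from -1.29 to 1.19 (limma adjusted p = 0.997). This interval holds changes of more than 1 log2 unit either way. The Ogdh difference was -0.76 without Nol3+/+ replicate 1 and 0.66 without Nol3+/+ replicate 2.

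Succinyl-CoA synthetase, which makes succinate and a nucleoside triphosphate, has a shared subunit encoded by Suclg1 and an ADP-forming partner encoded by Sucla2. Suclg1 read 6.26 and 5.86 in the Nol3-/- MPN arrays and 5.99 and 5.98 in the Nol3+/+ arrays. Its Nol3+/+ replicates were 0.01 apart and lay between the Nol3-/- MPN values, with a log2 difference of 0.08. The 95% interval of Suclg1, from -0.41 to 0.57, was the narrowest of the members (limma adjusted p = 0.970). Sucla2 read 8.08 and 8.35 in the Nol3-/- MPN arrays and 8.08 and 8.13 in the Nol3+/+ arrays, a log2 difference of 0.12 (95% interval from -0.46 to 0.70, limma adjusted p = 0.961). Mdh2 encodes the mitochondrial malate dehydrogenase, which regenerates oxaloacetate. It read 5.91 and 6.38 in the Nol3-/- MPN arrays and 6.14 and 5.72 in the Nol3+/+ arrays, and these overlapped. Its log2 difference was 0.21 (95% interval from -0.41 to 0.84, limma adjusted p = 0.927).

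**Figure D2:**
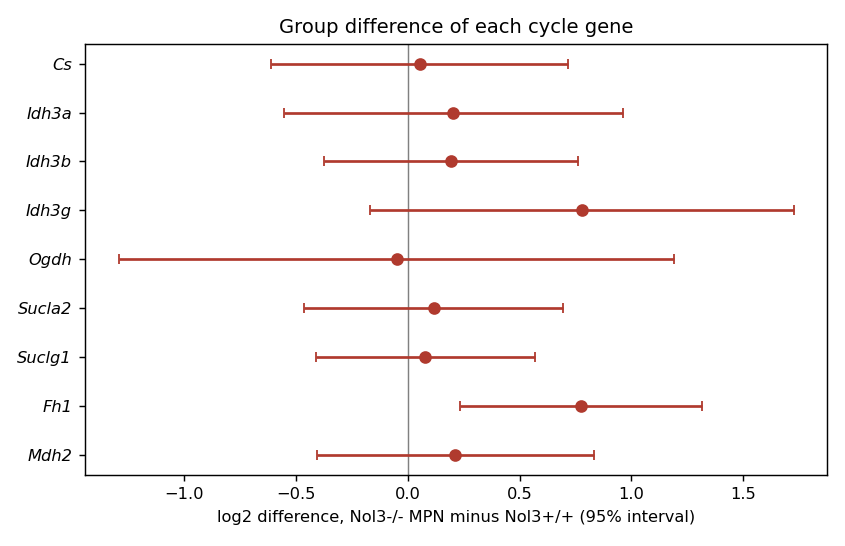
Log2 difference of each cycle gene (Nol3-/- MPN minus Nol3+/+), with limma's 95% interval as the bar, in the order of the reactions. The interval of Fh1, from 0.23 to 1.32, is the only one that does not hold 0, and that of Ogdh is the widest.

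As a group, 8 of the 9 members had a higher mean in Nol3-/- MPN and 1 a lower one, against 51.7% of all tested genes with a higher mean. Their median log2 difference was 0.19, against 0.01 over all tested genes. The groups did not overlap for 3 members, or 33.3% of them, against 35.5% of all tested genes. All 3 were higher in Nol3-/- MPN. Of all tested genes, 19.7% were higher in both Nol3-/- MPN arrays and 15.9% lower in both. The count of higher members turned on 1 array. Without Nol3-/- MPN replicate 2, 4 members were higher and 5 lower, and the median was -0.02. It was 7 higher and 2 lower without Nol3+/+ replicate 1, with a median of 0.29, and 8 higher and 1 lower without either of the other arrays. The share of all tested genes with a higher mean moved too. It was 46.9% without Nol3-/- MPN replicate 2 and 55.4% without Nol3-/- MPN replicate 1. Without Nol3+/+ replicate 1 it was 54%, and without Nol3+/+ replicate 2 it was 51.4%. The members' counts and medians describe a list that was chosen with earlier results known, and no test was made of it.

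Set against its own mean over the 4 arrays, each member shows which array carried the direction. Nol3-/- MPN replicate 2 was the highest array for 6 of the 9 members (Cs, Idh3a, Idh3b, Sucla2, Fh1 and Mdh2), against 27.9% of all tested genes. The median deviation of the members was -0.07 and 0.32 in the Nol3-/- MPN arrays and -0.08 and -0.05 in the Nol3+/+ arrays. The mean deviation was 0.00 and 0.27 in the Nol3-/- MPN arrays and -0.20 and -0.06 in the Nol3+/+ arrays. By the median, Nol3-/- MPN replicate 1 lay between the Nol3+/+ arrays, and by the mean it lay above both. The lowest deviations in Nol3+/+ replicate 1 were those of Idh3g, at -0.88, and Ogdh, at -0.69. Nol3+/+ replicate 1 was the lowest array for 4 members (Idh3g, Ogdh, Sucla2 and Fh1), against 29.5% of all tested genes. The median gap between replicates of the members was 0.46 in Nol3-/- MPN and 0.27 in Nol3+/+. Over the 7093 tested genes within the members' range of mean signal, it was 0.21 in Nol3-/- MPN and 0.24 in Nol3+/+.

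**Figure D3:**
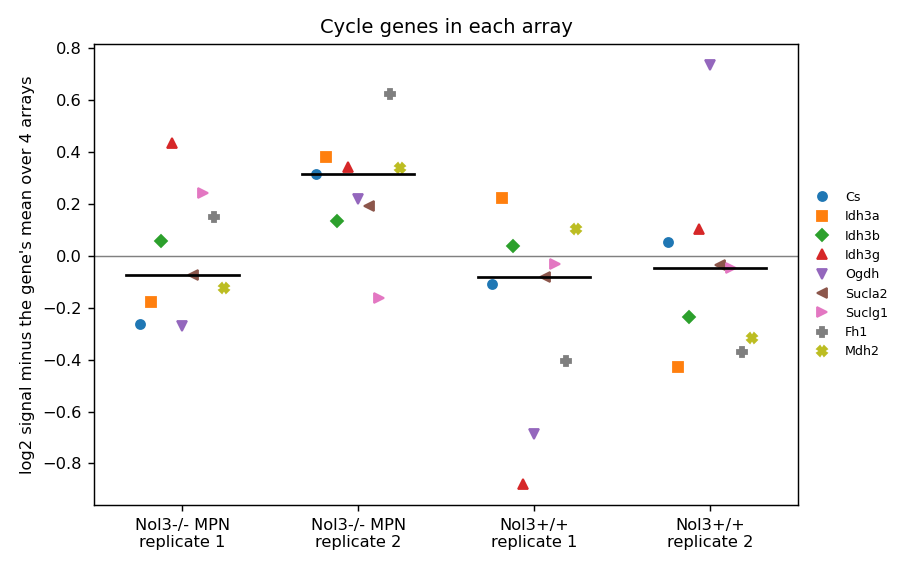
Log2 signal of each cycle gene minus its own mean over the 4 arrays, by array, with a black bar at the members' median. Nol3-/- MPN replicate 2 has a median of 0.32, and the other arrays lie between -0.08 and -0.05.

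The start-site regions of the 3 members whose groups did not overlap are shown as examples. That share of the members, 33.3%, was close to the 35.5% of all tested genes, so it does not mark the 3 as a set. RefSeq windows of build GRCm38.p6, from 250 bases before to 50 after the annotated start, were matched by symbol for 8 of the 9 members. Idh3a was not matched. Capitals mark matches, on either strand, to 4 short motifs bound by factors known to act on nuclear genes for mitochondrial proteins or growth: CCGGAAG for ETS factors such as GABP, GCATGCG for NRF1, CACGTG for Myc and other E-box factors, and AAGGTCA for oestrogen-related receptors. All are written 5′ to 3′ on the gene's strand.
Fh1, minus strand, chr1:175625586-175625885: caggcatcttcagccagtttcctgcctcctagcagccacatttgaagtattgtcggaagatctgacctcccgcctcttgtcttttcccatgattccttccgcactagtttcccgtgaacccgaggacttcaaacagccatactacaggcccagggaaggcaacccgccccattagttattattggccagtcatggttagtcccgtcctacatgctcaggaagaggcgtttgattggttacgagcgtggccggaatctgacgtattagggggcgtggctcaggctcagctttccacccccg
Idh3g, minus strand, chrX:73786848-73787147: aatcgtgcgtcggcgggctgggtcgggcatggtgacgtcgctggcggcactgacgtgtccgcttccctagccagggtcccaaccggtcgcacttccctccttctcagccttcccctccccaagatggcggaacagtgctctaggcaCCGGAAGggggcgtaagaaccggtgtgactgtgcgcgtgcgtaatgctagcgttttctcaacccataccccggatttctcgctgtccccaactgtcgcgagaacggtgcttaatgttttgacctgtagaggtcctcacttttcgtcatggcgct
Idh3b, minus strand, chr2:130284402-130284701: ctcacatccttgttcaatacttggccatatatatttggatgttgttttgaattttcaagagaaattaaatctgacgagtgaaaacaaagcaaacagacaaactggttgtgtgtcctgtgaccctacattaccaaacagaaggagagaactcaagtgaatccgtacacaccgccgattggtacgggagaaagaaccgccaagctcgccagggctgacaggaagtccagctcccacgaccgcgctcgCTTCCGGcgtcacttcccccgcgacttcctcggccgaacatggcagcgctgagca

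The Idh3g and Idh3b windows each held 1 match to the ETS motif, and these were the only member windows with one. Of 32851 windows over all annotated starts, 8.86% held that motif. The Fh1 window held none of the 4 motifs, nor did those of Cs, Sucla2, Suclg1 and Mdh2. The NRF1, E-box and oestrogen-related receptor motifs, present in 3.58%, 7.15% and 4.72% of all windows, were found among the members only in windows of Ogdh, which has several annotated starts. The 2 members with the largest differences, Fh1 and Idh3g, thus shared no match. The GC content of the windows printed above was 54.3% for Fh1, 60.3% for Idh3g and 50.3% for Idh3b, against a median of 52.7% over all windows. Their counts of CpG (C followed by G) were 14, 27 and 18, against a median of 7 over all windows. The ETS motif itself contains a CpG, and its share among windows as rich in CpG was not computed. A match is a run of letters and not a measured binding site.

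The start of Idh3g lies 126 bases from that of Ssr4, which encodes a subunit of the translocon-associated protein complex and is transcribed in the opposite direction. Ssr4 is therefore also X-linked. It read 5.27 and 4.96 in the Nol3-/- MPN arrays and 5.07 and 5.21 in the Nol3+/+ arrays, a log2 difference of -0.02 with a standard error of 0.16 (limma adjusted p = 0.995). The pair did not share a pattern over the arrays, and the difference between their changes was not tested. The Ssr4 values lay near the limit for dim genes, 4.835, where a change can be hard to see. Ogdh and Mdh2 also have a divergent neighbour within 1000 bases, but that of Ogdh, Gm46270, had no row with a single symbol and that of Mdh2, Styxl1, was dim.

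The rest of the cycle was read from a list of the other subunits, of which 7 of 8 were measured. Limma called 0 of the 7, or 1 at an unadjusted p under 0.05 (Sdhc, higher in Nol3-/- MPN). At that unadjusted threshold, 621 of all 16635 tested genes were higher and 344 lower. Of the 7, 4 were higher and 3 lower in Nol3-/- MPN, against 51.7% of all tested genes higher. Their median log2 difference was 0.10. Sdhc encodes a membrane anchor of succinate dehydrogenase, the enzyme that makes the fumarate used by fumarase. It read 6.68 and 7.02 in the Nol3-/- MPN arrays and 5.52 and 6.23 in the Nol3+/+ arrays. Its groups did not overlap, with a log2 difference of 0.98 (limma unadjusted p = 0.0204, adjusted p = 0.841). The iron-sulfur subunit gene Sdhb differed by 0.19, also without overlap, the other membrane anchor Sdhd by 0.10 and the flavoprotein subunit gene Sdha by -0.17. Of the 7 tested genes, 2 (Sdhc and Sdhb), or 28.6%, were higher in both Nol3-/- MPN arrays and 0 lower in both. The shares of all tested genes were 19.7% higher in both and 15.9% lower in both. Suclg2, the GDP-forming partner of Suclg1, differed by 0.26 in the row with the higher signal and by 0.62 in its other row. The groups overlapped in the first of these rows but not in the second. The first was not called by limma (adjusted p = 0.928), and the second was not tested.

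Pyruvate enters the cycle through the mitochondrial pyruvate carrier and the pyruvate dehydrogenase complex. Of 13 genes on that list, 10 were tested and limma called 0, none of them at an unadjusted p under 0.05 either. The list had 7 higher and 3 lower and a median of 0.07, against 51.7% of all tested genes higher. Pdha1, the catalytic subunit of pyruvate dehydrogenase and like Idh3g X-linked, read 7.94 and 7.53 in the Nol3-/- MPN arrays and 7.34 and 6.78 in the Nol3+/+ arrays. Its log2 difference was 0.68 (limma adjusted p = 0.841), and its groups did not overlap. Pdhb, the partner subunit of the same enzyme, differed by -0.38 (limma adjusted p = 0.883). Pdk1, an inhibitory kinase of the complex, differed by 0.37 in the row with the higher signal (limma adjusted p = 0.879) and by -0.14 in its other row, which was not tested.

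The enzymes that run parallel reactions outside the NAD-linked cycle were also not called, 0 of them reaching an unadjusted p under 0.05. Of 10, 7 were tested, with 5 higher and 2 lower and a median of 0.11, against 51.7% of all tested genes higher. Idh2, the mitochondrial NADP-dependent isocitrate dehydrogenase whose mutant forms occur in human myeloid neoplasms, read 7.40 and 6.80 in the Nol3-/- MPN arrays and 6.89 and 5.72 in the Nol3+/+ arrays. The groups overlapped, and the log2 difference was 0.80 with a 95% interval from -0.34 to 1.93 (limma adjusted p = 0.846). Dhtkd1, which encodes the 2-oxoadipate dehydrogenase of lysine breakdown, differed by -0.21 and Me3, a mitochondrial malic enzyme, by 0.11. The second row of Me3, not tested, differed by -0.10.

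Genes of glutamine and aspartate exchange, which feed or drain the cycle, had 4 of 6 members tested and 0 called by limma. All 4 were higher, against 51.7% of all tested genes, with a median of 0.22. Glud1, glutamate dehydrogenase, differed by 0.35, Got2, the mitochondrial aspartate aminotransferase, by 0.25 and Pck2, the mitochondrial phosphoenolpyruvate carboxykinase, by 0.17. The 6 metabolite carriers of the inner membrane had 3 higher, 3 lower and 0 called, with a median of 0.00. Among them the aspartate-glutamate carriers Slc25a12 and Slc25a13 differed by 0.24 and -0.18, and the oxoglutarate carrier Slc25a11 by 0.18. Of 10 regulators of mitochondrial biogenesis, 9 were tested and 0 called, with 5 higher and 4 lower and a median of 0.01. Tfam, which packages mitochondrial DNA, differed by 0.15, the mitochondrial RNA polymerase gene Polrmt by -0.19 and Gabpa, the DNA-binding subunit of GABP, by 0.39. Their limma adjusted p-values were 0.889, 0.892 and 0.917. In the exchange, carrier and regulator lists 0 genes reached an unadjusted p under 0.05.

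**Figure D4:**
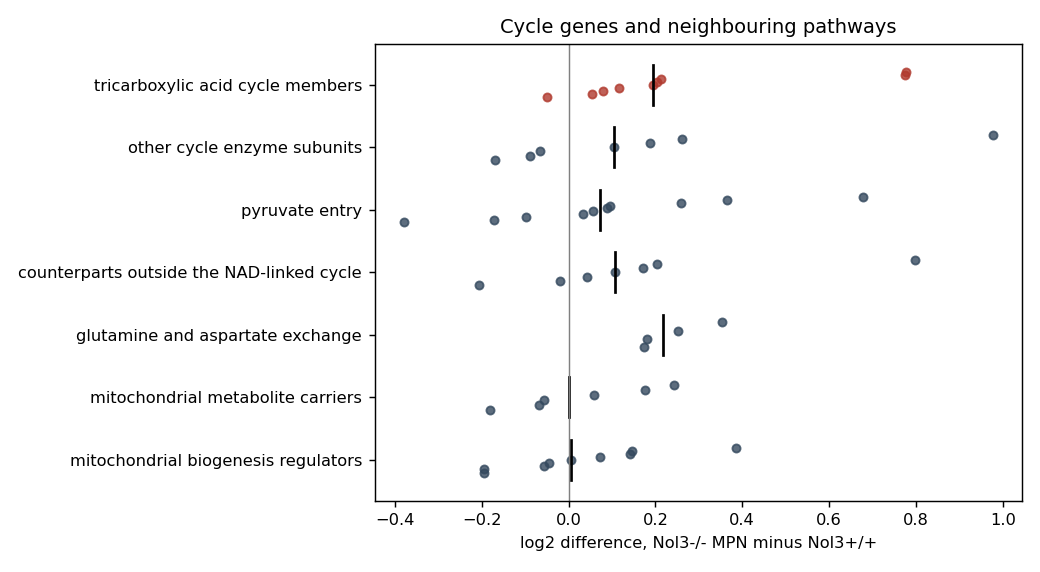
Log2 difference (Nol3-/- MPN minus Nol3+/+) of each tested gene, as a point, in the cycle members (red) and 6 neighbouring gene lists (grey), with a black bar at each list's median. The medians run from 0.00 for the metabolite carriers to 0.22 for glutamine and aspartate exchange, and 0 of the points passed limma's adjusted threshold.

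The profile of the members over the 4 arrays was compared with that of every other tested gene, by the root mean square distance between their mean-centred log2 signals. The closest were Rap1gds1, a guanine nucleotide exchange factor gene, Adam17, a sheddase gene, and the pseudogene Bambi-ps1, at distances of 0.015, 0.015 and 0.017 log2 units. Rap1gds1 read 6.90 and 7.14 in the Nol3-/- MPN arrays and 6.66 and 6.84 in the Nol3+/+ arrays. With only 4 arrays, 114 of 16626 genes lay within 0.05 of the profile.

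Markers of other cells that the sort could hold were summed on the linear scale, over each list's genes with a row. The 12 granulocyte and monocyte markers summed to 1170 and 1231 signal units in the Nol3-/- MPN arrays and 1263 and 1774 in the Nol3+/+ arrays. The erythroid sums, from 4 of 8 markers, were 510 and 627 in the Nol3-/- MPN arrays and 464 and 403 in the Nol3+/+ arrays. They rest on Tfrc, the transferrin receptor gene, which dividing cells of other types also express. The other 3 erythroid markers summed to 194 and 200 in the Nol3-/- MPN arrays and 209 and 192 in the Nol3+/+ arrays, which overlap. The B cell sums, from 5 of 6 markers, were 239 and 254 in the Nol3-/- MPN arrays and 209 and 209 in the Nol3+/+ arrays. For mast cells and basophils (5 of 5) they were 416 and 573 in the Nol3-/- MPN arrays, against 374 and 592 in the Nol3+/+ arrays. For T and NK cells (6 of 6) they were 320 and 317 in the Nol3-/- MPN arrays and 324 and 340 in the Nol3+/+ arrays. For megakaryocytes (5 of 6) they were 238 and 305 in the Nol3-/- MPN arrays and 306 and 259 in the Nol3+/+ arrays. Stromal sums (5 of 5) were 178 and 209 in the Nol3-/- MPN arrays and 223 and 182 in the Nol3+/+ arrays. Stem and progenitor sums (8 of 9) were 1430 and 1288 in the Nol3-/- MPN arrays and 1405 and 1504 in the Nol3+/+ arrays. The erythroid and B cell sums were higher in both Nol3-/- MPN arrays, the granulocyte and monocyte and the T and NK cell sums were lower, and the other 4 overlapped. The sums were also taken without the marker that moved each most, a step added after the values were seen. The B cell sum without Cd79b was 159 and 170 in the Nol3-/- MPN arrays and 151 and 151 in the Nol3+/+ arrays, still higher in the former. Of the 4 markers left in it, Ms4a1 was below the limit for dim genes and Pax5 overlapped between the groups. The erythroid sum without Tfrc, the granulocyte and monocyte sum without S100a9 and the T and NK cell sum without Ncr1 overlapped. The mast cell and basophil sum without Cpa3 was lower in both Nol3-/- MPN arrays. Yet of the 4 tested markers of that list, 3 had a higher mean in Nol3-/- MPN and only 1, Prg2, a lower one. Prg2 read 5.90 and 6.02 in the Nol3-/- MPN arrays and 7.39 and 6.17 in the Nol3+/+ arrays. Limma called 0 of the 46 tested markers. Without adjustment, 3 had a higher signal with limma p under 0.05, namely Adgre1, Cd79b and Pf4. The 3 with a lower signal were Hlf, S100a8 and S100a9. Of all tested genes, 3.73% were higher and 2.07% lower at that threshold. Array signals have no true 0, and the part of these cells in the cycle genes' signal was not tested.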

How the data were processed

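The authors deposited 1 table of normalized array values, with 41345 rows and 4 arrays, treated here as log2 signals. The scale was read from the values, which run from 2.84 to 13.5, and the log base is not stated. The submitters' processing notes name Affymetrix Expression Console, and Transcriptome Analysis Console beside it. Background correction and normalization method: not given in the sources used here. Array medians lay between 5.35 and 5.39. Without detection values, background and low expression look alike, and with 4 arrays the precision is limited.

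Rows with exactly 1 gene symbol (23521) were kept, and of several rows of a gene the one with the highest mean. Genes under the 25th percentile of mean signal were left out. Limma 3.58.1 in R 4.3.3 (lmFit, eBayes with a variance trend) compared Nol3-/- MPN with Nol3+/+ over all 16635 remaining genes, with 2 residual degrees of freedom, Benjamini-Hochberg adjustment and a threshold of 0.05. The script was tested on simulated data with shifts far larger than any member's difference. That simulation does not show whether changes of the members' size would be found. The members and lists were chosen with earlier results of these data known. From each neighbouring list the 3 genes with the smallest p were named. The other succinate dehydrogenase subunits were added after their values were seen, as were the motifs and the neighbours found by distance to a member's start. The alternatives covered the replicate block, each array left out, other normalizations, variance models, array weights, dim filters, row choice, and X- and Y-linked genes left out.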

Additional observations from a re-analysis of the deposited data

How the results depend on the processing

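No alternative called a member. Fh1, Idh3g and Idh3b kept a positive difference under each alternative run, Idh3g not being in the fit without X- and Y-linked genes. Other members changed sign only when an array was left out, with ranges of log2 differences over the 4 fits of -0.24 to 0.34 for Cs, -0.12 to 0.53 for Idh3a, -0.76 to 0.66 for Ogdh, -0.017 to 0.25 for Sucla2, -0.12 to 0.28 for Suclg1 and -0.019 to 0.45 for Mdh2. The members' median ranged from -0.017 to 0.34 over these fits, and from 0.16 to 0.20 under the other alternatives. With 1 array left out, 5 to 8 members did not overlap between groups, as did 64.0% to 73.4% of all tested genes. A group then held 1 array, which falls outside the range of the other group more easily than 2 arrays do. The limma fits without an array assume that the single array left in a group varies like the other group. After quantile normalization 2 members did not overlap, Fh1 and Idh3g, and Idh3b did. Over all genes limma called 4, against 0 to 39 with 1 array left out (18 without Nol3+/+ replicate 1, 39 without Nol3+/+ replicate 2 and 0 without either Nol3-/- MPN array), 0 with the replicate block and 0 without X- and Y-linked genes. The labels do not say whether arrays with the same replicate number were prepared together. The difference between replicates 1 and 2 correlated at 0.05 between the groups, which cannot decide it. With the replicate block the members' differences were the same, as at 0.78 for Fh1, and 0 were called.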
